A study of Mus musculus with 1536 samples.

Results

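Nos1, Pde2a, Pde5a, Pde9a, Prkg1 and Prkg2 were followed in single serotonin neurons of the mouse raphe. These 6 genes were chosen by name as the neuronal nitric oxide synthase, 3 phosphodiesterases and 2 kinases of the cyclic GMP pathway, and are 6 of the 25522 genes that were detected in at least 3 cells. Each cell was a tdTomato-positive cell sorted alone and made into 1 Smart-seq2 library, which holds full-length polyadenylated RNA amplified by PCR without molecular identifiers. The mice were C57BL/6J, of the genotype Sert-tdTomato-Cre crossed with Ai14 and 40 to 45 days old, so that Cre made in cells with the serotonin transporter had switched on the fluorescent protein, in both groups alike and with no treatment. The pDR group came from the principal dorsal raphe (290 cells on 5 plates) and the DR_all group from the dorsal raphe as a whole (709 cells on 11 plates), a dissection that the methods describe as also taking in the median raphe. Cells of several brains make up each dissection by the study's methods, but the labels do not tie cells to animals. Each dissection was therefore treated as 1 sample, cells are not replicates, no p-value was computed, and differences are read against the spread between plates.

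Depth per cell lay between 96834 and 2780443 gene reads, with medians of 755926 in pDR and 869546 in DR_all. The serotonin neuron genes Tph2, Fev, Slc6a4 and Slc18a2 were read in at least 99.6% of the cells with and without Nos1 in both dissections. The pDR plates stood apart from those of DR_all in the clustering described further on. Most cells of SER12 and SER13 fell in clusters of their own, and those of SER39 and SER40 in another. Most cells of SER25 lay in a cluster with some cells of other plates. Values within plates are therefore given beside each result.

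Nitric oxide synthase makes nitric oxide from arginine when calcium-loaded calmodulin binds it. The gas activates the soluble guanylyl cyclase, a pair of subunits encoded by Gucy1a1 or Gucy1a2 with Gucy1b1, which makes cyclic GMP. Cyclic GMP activates the protein kinases encoded by Prkg1 and Prkg2 and is split by phosphodiesterases, of which Pde5a and Pde9a prefer cyclic GMP and Pde2a splits cyclic AMP as well and is stimulated by cyclic GMP. Neuronal nitric oxide synthase is a known marker of a subset of dorsal raphe serotonin neurons.

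The start regions of Nos1 and Pde5a are shown because these 2 genes had opposite relations to Trh and Slc17a8. Their relations to Gad1 and Gad2 were opposite in pDR only. RefSeq on GRCm38.p6 gives a window of 300 bases around an annotated start of each, and the capitals mark the core of the cyclic AMP response element (TGACG, or CGTCA on the other strand). The Nos1 window, chr5:117866589-117866888 on the plus strand, lies inside the GENCODE gene model, which spans chr5:117781032-117958840. The Pde5a window, chr3:122728908-122729207 on the plus strand, covers the start of the GENCODE gene (chr3:122728947-122859374).
Nos1: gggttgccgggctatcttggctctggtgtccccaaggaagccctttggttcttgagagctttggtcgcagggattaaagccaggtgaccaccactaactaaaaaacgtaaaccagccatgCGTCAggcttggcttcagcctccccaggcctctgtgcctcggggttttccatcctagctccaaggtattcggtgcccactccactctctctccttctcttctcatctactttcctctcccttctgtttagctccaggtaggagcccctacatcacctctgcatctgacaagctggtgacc
Pde5a: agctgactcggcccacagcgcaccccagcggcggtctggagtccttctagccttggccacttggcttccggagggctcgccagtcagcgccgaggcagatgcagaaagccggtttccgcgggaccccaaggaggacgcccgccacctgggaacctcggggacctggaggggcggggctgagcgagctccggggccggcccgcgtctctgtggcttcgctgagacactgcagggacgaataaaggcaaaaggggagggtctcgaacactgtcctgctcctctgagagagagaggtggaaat
The core occurs once in the Nos1 window and is not in the Pde5a window, and 20.8% of all 32851 RefSeq windows hold it. No match says only that these letters are missing from this stretch.

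Nos1 was found in a minority of the cells, and in a larger share of DR_all than of pDR. At least 1 read of Nos1 was present in 38 of 290 pDR cells (13.1%, exact 95% interval 9.44% to 17.5%) and in 173 of 709 DR_all cells (24.4%, 21.3% to 27.7%), where the intervals cover counting error only. By plate, the pDR shares were 19.4% (SER12), 8.24% (SER13), 6.98% (SER25), 17.9% (SER39) and 12.2% (SER40), and those of DR_all ran from 17.1% through a median of 25.0% to 30.0%. Plates SER12 and SER39 lay within the DR_all range and the other 3 pDR plates below it. With every cell thinned to 250000 reads the shares were 11.4% and 23.7%.

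Cells with Nos1 held a wide range of it. Among positive cells the median level was 22.1 CPM (reads of the gene scaled to a fixed total of reads per cell) in pDR (1.14 to 214) and 39.7 CPM in DR_all (1.02 to 290.0). Single reads made up 5 of the 38 positive pDR cells and 5 of the 173 positive DR_all cells, and 26 and 156 cells had at least 5 reads. Over all cells, the mean of the plate means was 7.19 ± 4.24 CPM (SD, n = 5 plates) in pDR and 14.0 ± 4.21 CPM (n = 11 plates) in DR_all. A single cell supplied between 30.0% and 80.3% of the summed Nos1 CPM of a pDR plate, so plate means of this gene rest on few cells.

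Of the phosphodiesterases, Pde2a was detected in nearly all cells, Pde9a in most cells and Pde5a in few. Pde2a had reads in 262 of 290 pDR cells (90.3%, 86.3% to 93.5%) and in 645 of 709 DR_all cells (91.0%, 88.6% to 93.0%), at 9.63 ± 3.50 CPM and 11.4 ± 2.99 CPM over plates. Pde9a had reads in 168 pDR cells (57.9%) and 428 DR_all cells (60.4%), at 9.26 ± 1.35 CPM and 11.7 ± 3.17 CPM. The ranges of the plate means overlapped between dissections for both genes, 6.72 to 15.3 CPM against 8.61 to 19.0 CPM for Pde2a and 6.96 to 10.4 CPM against 6.81 to 17.8 CPM for Pde9a.

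Pde5a, the target of sildenafil in smooth muscle, was the member with the highest share in pDR relative to DR_all. It had reads in 54 pDR cells (18.6%, 14.3% to 23.6%) and in 36 DR_all cells (5.08%, 3.58% to 6.96%). The pDR plates gave 21.5% (SER12), 22.4% (SER13), 14.0% (SER25), 17.9% (SER39) and 9.76% (SER40), and the DR_all plates ran from 1.32% through a median of 5.19% to 10.8%, so that 1 pDR plate, SER40, lay within the DR_all range. After thinning, the shares were 16.3% and 4.14%. In positive cells the median level was 10.9 CPM in pDR and 8.84 CPM in DR_all, with 7 and 8 cells at a single read.

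The kinases were sparse. Prkg1 was read in 58 pDR cells (20.0%, 15.6% to 25.1%) and 143 DR_all cells (20.2%, 17.3% to 23.3%), and its positive cells had a median of 4.48 CPM and 7.05 CPM. For Prkg2 the counts were 36 pDR cells (12.4%, 8.85% to 16.8%) and 62 DR_all cells (8.74%, 6.77% to 11.1%), with positive-cell medians of 7.32 CPM and 10.2 CPM. Prkg1-positive cells had a median of 3 reads in pDR and 5 in DR_all, so shares of this gene depend on depth, and after thinning they were 13.8% and 15.8%. Either kinase was read in 29.7% of pDR cells and 26.2% of DR_all cells, and both together in 8 and 19 cells.

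**Figure D1:**
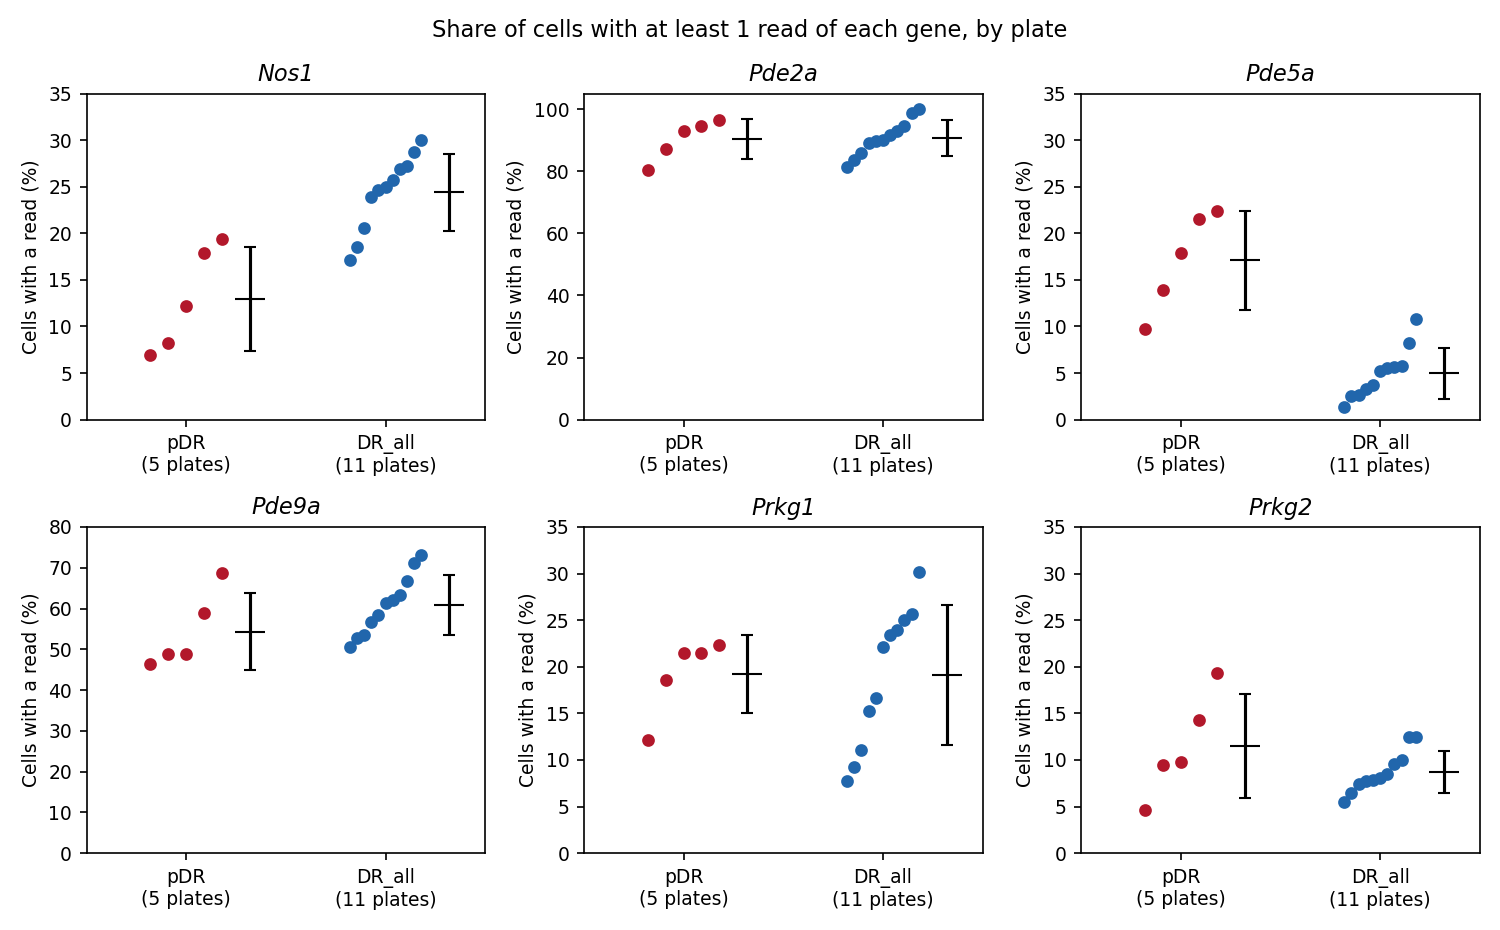
Each point is a plate and gives the percentage of its cells with at least 1 read of the gene named above the panel, in pDR (5 plates) and DR_all (11 plates), and the bars are the mean and SD over plates. Nos1 plates of pDR lie between 6.98% and 19.4% and those of DR_all between 17.1% and 30.0%, whereas Pde5a runs the other way, at 9.76% to 22.4% against 1.32% to 10.8%.

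Levels of different genes can be set side by side only per length. The mean level per kilobase of exon was 4.98 CPM per kb for Pde2a, 2.67 for Pde9a, 0.568 for Nos1, 0.305 for Pde5a, 0.198 for Prkg2 and 0.138 for Prkg1 in pDR. In DR_all it was 5.13 CPM per kb for Pde2a, 3.24 for Pde9a, 1.34 for Nos1, 0.243 for Prkg1, 0.227 for Prkg2 and 0.0852 for Pde5a. The order of the first 3 genes was thus shared, and Pde5a was next after them in pDR and last in DR_all. For Pde2a only the 2194 exon bases that no other listed gene covers were used: 64.3% of its exon bases lie within Gm45837, an annotated gene on the same strand that had reads in 3 cells, and reads shared by 2 genes were not counted by the authors' rule. Over all its exon bases Pde2a would be at 1.78 and 1.83 CPM per kb, below Pde9a.

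Between dissections, Nos1 and Pde5a lay close to the threshold of 1 on the log2 scale and the other 4 genes well inside it, with the difference given as the log2 ratio of the means over plates plus 1 CPM. The ratio of pDR over DR_all was −0.88 for Nos1, 0.96 for Pde5a, −0.43 for Prkg1, −0.30 for Pde9a, −0.22 for Pde2a and −0.12 for Prkg2. For comparison, of 8087 genes with a mean over 10 CPM, 2.82% had a ratio of at least 1 and 1.21% of at most −1. Plate means of all 6 genes overlapped between dissections, and for 11.6% of the 8087 genes they did not. Nos1, Pde2a and Pde9a are among those 8087 genes, while Pde5a, Prkg1 and Prkg2 have a lower mean. The size of the Pde5a ratio depends on the constant added, and it was 1.53 with 0.1 CPM and 0.21 with 10 CPM. With cells pooled over plates both genes were past 1, at −1.12 for Nos1 and 1.12 for Pde5a. Leaving out 1 plate moved Nos1 to −1.16 (without SER39) and Pde5a to between 1.01 and 1.10 without SER25, SER39, SER40, SER55 or SER57.

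Nos1 was found more often in cells with Crh, the gene of corticotropin-releasing hormone, than in cells without it. In pDR, 12 of 41 Crh-positive cells (29.3%) and 26 of 249 Crh-negative cells (10.4%) had Nos1, with a Mantel-Haenszel odds ratio over plates of 3.82 and a higher share in 5 of 5 plates. The 5 plates with at least 3 Crh-positive cells in DR_all gave 21 of 34 (61.8%) against 79 of 346 (22.8%), an odds ratio of 5.76, with plate SER63 (1 of 5 Crh-positive cells) in the opposite direction and an odds ratio of 9.60 without it. The level went with the share, at a mean of 26.1 CPM in Crh-positive and 2.89 CPM in Crh-negative cells of pDR, and of 63.8 CPM and 12.8 CPM in DR_all. Among Nos1-positive cells, the median level was 75.3 CPM in 12 cells with Crh and 6.32 CPM in 26 cells without it in pDR, and 110.9 CPM in 24 and 35.4 CPM in 149 cells in DR_all.

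Crh-positive cells were nonetheless a minority of Nos1-positive cells, 12 of 38 (31.6%) in pDR and 24 of 173 (13.9%) in DR_all. Reads per cell moved with this marker in DR_all, where the median was 1201760 in Crh-positive and 814956 in Crh-negative cells of the plates used, and in pDR it was 739451 and 762049. At 250000 reads in every cell the odds ratios were 4.97 in pDR and 10.3 in DR_all. Thinning also removes reads of Crh, so the cells called positive and the plates used can differ. The part of depth in this relation was not tested.

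Trh, the gene of thyrotropin-releasing hormone, went the other way. Nos1 was read in 7 of 98 Trh-positive pDR cells (7.14%) against 31 of 192 Trh-negative cells (16.1%), an odds ratio of 0.32 with a lower share in 5 of 5 plates. In 8 plates of DR_all it was read in 4 of 38 (10.5%) against 136 of 537 (25.3%), an odds ratio of 0.33 with a lower share in 7 of 8 plates. The exception was plate SER55, with Nos1 in 2 of 5 Trh-positive cells, and the odds ratio without it was 0.185. The 4 Nos1-positive, Trh-positive cells of DR_all had a median of 1.98 CPM of Nos1, compared with 42.3 CPM in the 169 Nos1-positive cells without Trh.

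The relation of Nos1 to the transmitter genes differed in size between dissections. Slc17a8 encodes the vesicular glutamate transporter VGLUT3, and Nos1 was read in 27 of 131 pDR cells with it (20.6%) and 11 of 159 without it (6.92%), an odds ratio of 3.86 in which 5 of 5 plates had the higher share in positive cells. Plate SER12 held the ratio down, since it was 6.05 without that plate. In DR_all the shares were 26.4% (137 of 518 cells) and 18.8% (36 of 191 cells), with an odds ratio of 1.51 and 9 of 11 plates in that direction. In cells without a read of Gad1 or Gad2, a set added after the data had been seen, the odds ratios were 4.27 and 1.84.

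Gad1 and Gad2 encode the enzymes that make GABA. In pDR, 14 of 183 cells with either gene (7.65%) and 24 of 107 cells with neither (22.4%) had Nos1, an odds ratio of 0.27 with a lower share in 5 of 5 plates. In DR_all the shares were 28.0% and 23.3%, the odds ratio was 1.29, and 5 plates lay in each direction with 1 equal. The dissections differ in how many cells carry either gene, 183 of 290 in pDR and 164 of 709 in DR_all. Whether the relation itself differs between dissections was not tested, since each is 1 sample.

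Pde5a had nearly the reverse pattern. It was read in 38 of 98 Trh-positive pDR cells (38.8%) and 16 of 192 Trh-negative cells (8.33%), an odds ratio of 6.72 with a higher share in 5 of 5 plates. Plate by plate, the Trh-positive and Trh-negative shares were 39.5% and 6.00% (SER12), 50.0% and 10.2% (SER13), 44.4% and 5.88% (SER25), 18.2% and 17.6% (SER39), and 22.2% and 6.25% (SER40), so the 2 sets were nearly equal on SER39. In 8 plates of DR_all, 18 of 38 Trh-positive cells (47.4%) and 12 of 537 Trh-negative cells (2.23%) had Pde5a, an odds ratio of 41.8 with a higher share in 8 of 8 plates, and of 64.5 without plate SER57. The mean level was 5.31 CPM against 1.82 CPM in pDR and 10.5 CPM against 0.238 CPM in DR_all.

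With the transmitter genes, Pde5a ran opposite to Nos1 in pDR. In DR_all it did so with Slc17a8 but not with the Gad genes. Pde5a was read in 50 of 183 pDR cells with Gad1 or Gad2 (27.3%) and 4 of 107 without (3.74%), an odds ratio of 9.20, and in 21 of 164 (12.8%) against 15 of 545 DR_all cells (2.75%), an odds ratio of 5.15. The share was higher with a Gad gene in 5 of 5 and 9 of 11 plates, and the pDR odds ratio was 5.70 without plate SER13. With Slc17a8 the odds ratios were 0.12 and 0.18, from 6 of 131 against 48 of 159 pDR cells and 13 of 518 against 23 of 191 DR_all cells. Of the Pde5a-positive pDR cells, 92.6% had a Gad gene and 70.4% had Trh, and in DR_all the shares were 58.3% and 52.8%. No such pattern was seen with Crh, for which the odds ratios were 0.53 in pDR, 0.86 without plate SER12, and 1.89 in DR_all, which was 0.69 without plate SER52. The sets of cells with Trh, a Gad gene or no Slc17a8 overlap. Of the 183 pDR cells with a Gad gene, 136 had no Slc17a8, and the paper states that most Trh neurons also express Gad1. The relations to these markers are therefore not separate results, for Pde5a or for Nos1.

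Pde9a followed Slc17a8. It was read in 91 of 131 Slc17a8-positive pDR cells (69.5%) against 77 of 159 negative cells (48.4%), an odds ratio of 2.63 with a higher share in 5 of 5 plates. In DR_all the counts were 351 of 518 (67.8%) against 77 of 191 (40.3%), an odds ratio of 3.25 with a higher share in 11 of 11 plates. The mean level was 11.4 CPM against 7.85 CPM in pDR and 13.4 CPM against 6.17 CPM in DR_all. With the Gad genes, Trh and Crh its odds ratios lay between 0.66 and 1.52. Median reads were 774734 in Slc17a8-positive and 727211 in Slc17a8-negative pDR cells, and 897954 and 800645 in DR_all. The part of depth in the relation to Slc17a8 was not tested.

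Pde2a was close to the ceiling in most sets, so shares say little about it. Its lowest share among the marker sets was in DR_all cells with a Gad gene, 133 of 164 (81.1%) against 512 of 545 without one (93.9%), an odds ratio of 0.25, whereas in pDR the odds ratio was 1.60. All 38 Trh-positive cells of the 8 DR_all plates had Pde2a, for which no odds ratio can be given, and 95 of 98 Trh-positive cells did in pDR (96.9%, against 87.0% of Trh-negative cells). On the log2 scale its mean level differed by no more than 0.41 between marker-positive and marker-negative cells in any of the 8 comparisons.

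The kinases were compared with the same markers. The 16 odds ratios of Prkg1 and Prkg2 with the 4 markers in the 2 dissections ran from 0.49 (Prkg1 with Crh in pDR, 5 of 41 against 53 of 249 cells) to 1.76 (Prkg2 with Slc17a8 in pDR, 20 of 131 against 16 of 159 cells). No kinase had the same direction in every plate of a comparison.

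**Figure D2:**
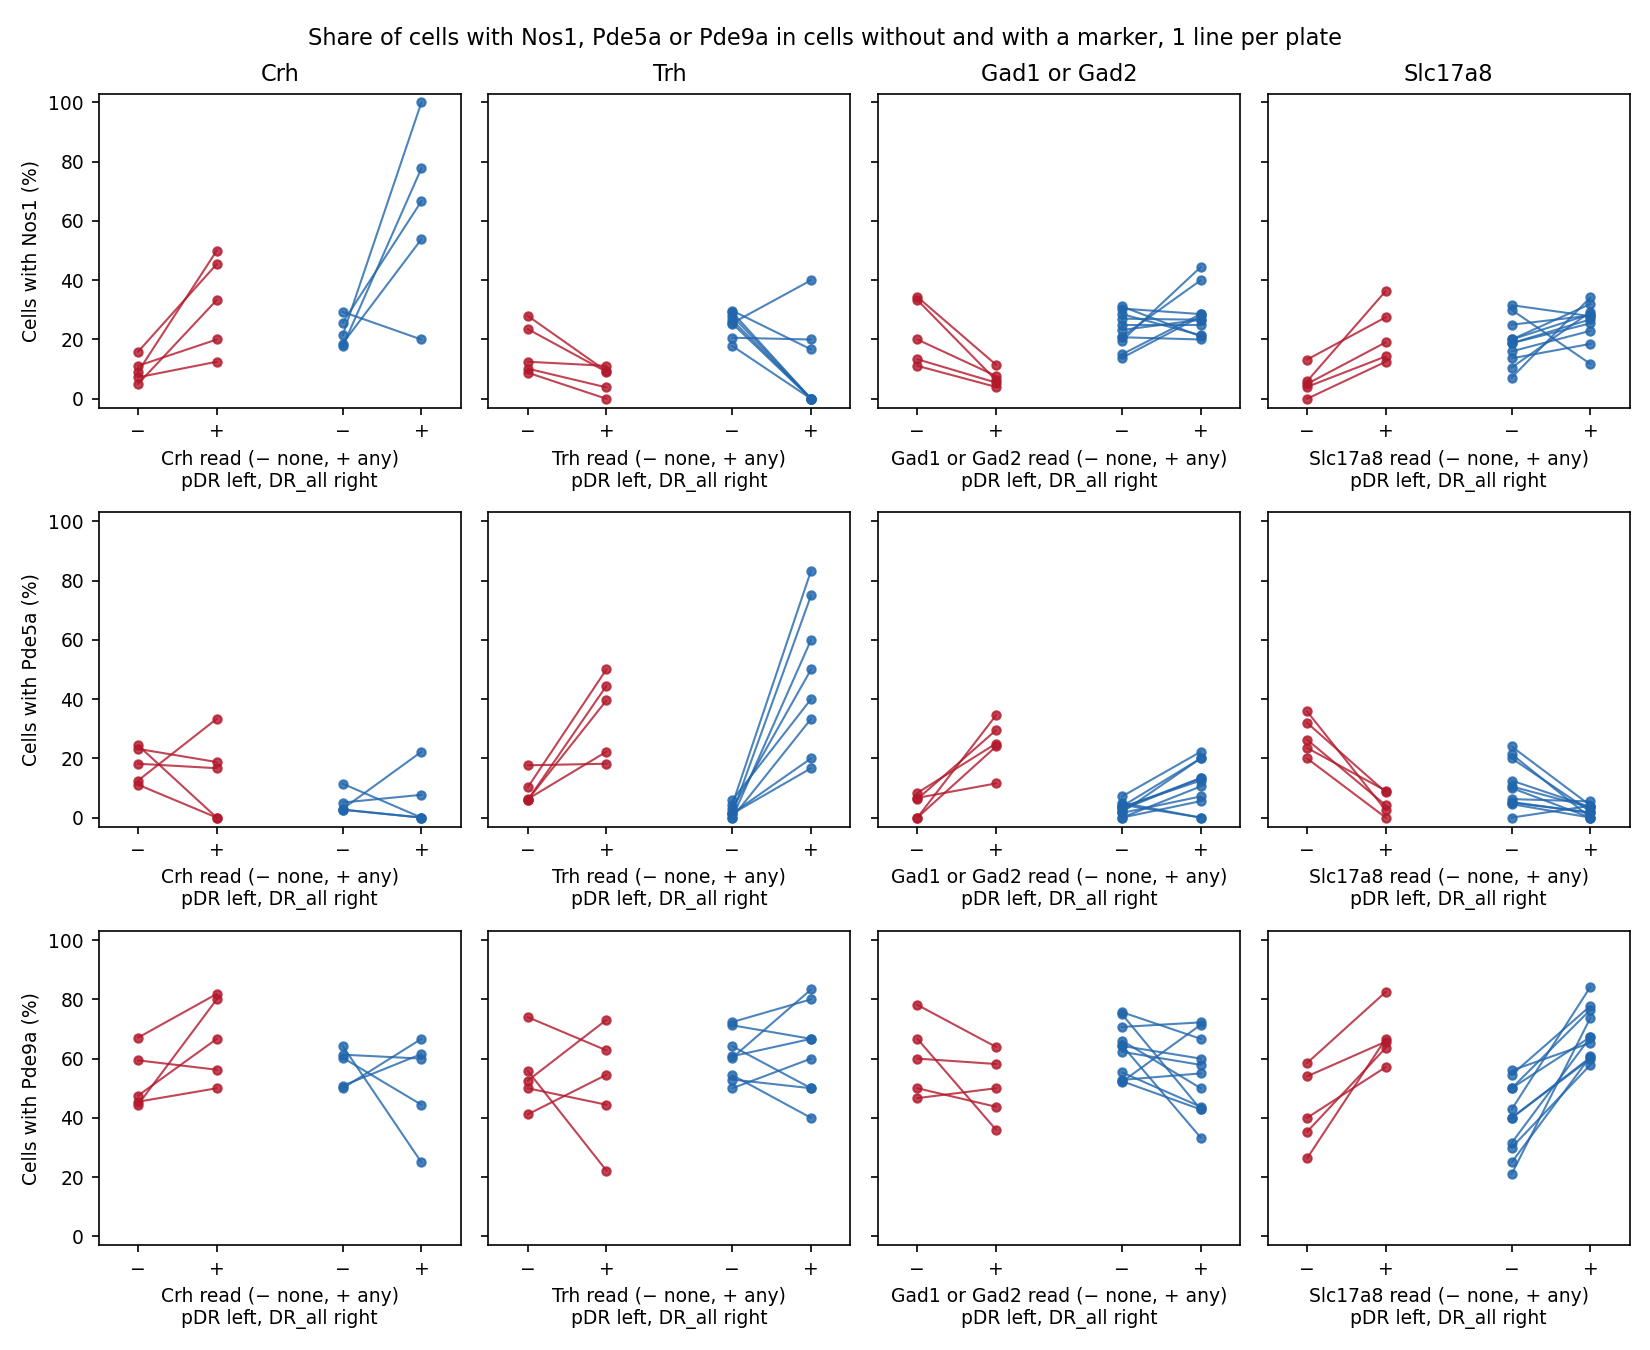
Each line joins the percentage of cells with Nos1 (top), Pde5a (middle) or Pde9a (bottom) in cells without (−) and with (+) a read of the marker on 1 plate, with pDR in red and DR_all in blue. The lines of Nos1 slope up with Crh in all 5 pDR plates and in 4 of 5 DR_all plates, those of Pde5a slope up with Trh in all 13 plates, and those of Pde9a slope up with Slc17a8 in all 16 plates.

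Sorting the cells by transmitter class set Nos1 and Pde5a apart in pDR but less so in DR_all. Nos1 was read in 26.2% of the 84 pDR cells with Slc17a8 and no Gad gene (17.2% to 36.9%), in 6.62% of the 136 cells with a Gad gene and no Slc17a8 (3.07% to 12.2%) and in 10.6% of the 47 cells with both (3.55% to 23.1%). In DR_all the same classes had 25.4% of 429, 24.0% of 75 and 31.5% of 89 cells, and the 116 cells with neither had 15.5%. The difference between dissections within a class was not tested, since the intervals cover counting error only. Pde5a was read in 33.8% of Gad-only cells and 2.38% of Slc17a8-only cells in pDR, and in 20.0% and 1.63% in DR_all. Pde9a ran from 72.6% of Slc17a8-only cells to 30.4% of cells with neither in pDR and from 69.0% to 37.1% in DR_all. Median reads per cell of these classes ranged from 727211 to 906271 and were lowest in the cells with neither in each dissection (727211 and 792664).

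**Figure D3:**
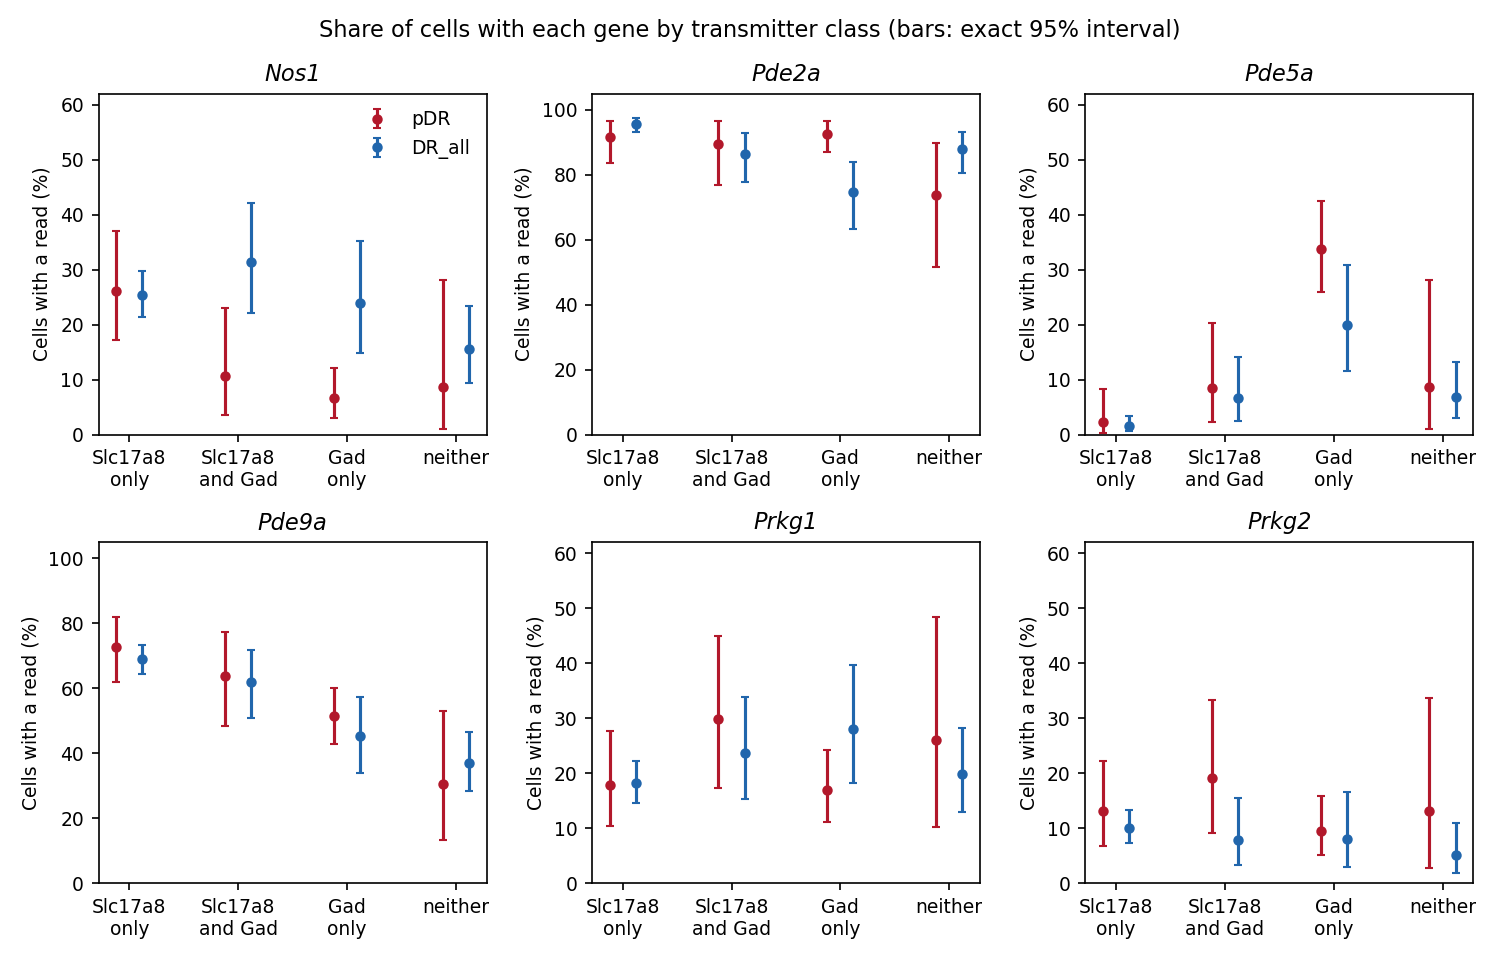
Points give the percentage of cells with at least 1 read of each gene in 4 classes of cells, those with Slc17a8 and no Gad1 or Gad2, both kinds, a Gad gene only and neither, and bars are exact 95% intervals for counting error. Nos1 in Gad-only cells sits at 6.62% in pDR and 24.0% in DR_all, and Pde5a is highest in Gad-only cells of both dissections.

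Cells with and without Nos1 were then compared for all 8087 genes, within each plate that had at least 5 cells of each kind. A gene was called where the mean log2 ratio over plates was past 1 and every plate had the same sign. The pDR comparison used 35 positive and 212 negative cells of 4 plates (SER25 had too few), and the DR_all comparison 173 and 536 cells of 11 plates. Median reads were 767943 in positive and 749446 in negative pDR cells, and 928556 and 854352 in DR_all, with the deeper median in positive cells on 2 of 4 and 7 of 11 plates. In pDR, 0.532% of the genes (43, of which 42 without Nos1 itself) were called higher and 0.878% (71) lower in positive cells, and in DR_all 0.0124% (1, Nos1 itself) and 0.0495% (4). These counts depend on single plates: without SER12 they were 79 and 134 in pDR, without SER13 120 were lower, and in DR_all 3 were higher without SER48 or SER55, 2 without SER56 or SER67, and 7 were lower without SER56. More plates must share a sign in DR_all, and by the mean ratio alone 45 genes besides Nos1 were past 1 and 117 past −1 in pDR, compared with 0 and 15 in DR_all. The plates used held 18, 7, 5 and 5 Nos1-positive cells in pDR and 5 to 23 in DR_all. Means over fewer plates with few positive cells vary more and pass a threshold more easily, so neither pair of counts can be compared directly between dissections.

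The genes called higher in pDR were led by Adcyap1, which encodes the neuropeptide PACAP. Its log2 ratio was 4.55 ± 1.55 (SD over 4 plates), with mean levels of 49.6 CPM in cells with Nos1 and 2.77 CPM in cells without, and 28.6% and 7.55% of the cells had a read of it. Cacng5, an auxiliary subunit of AMPA receptors, was at 3.07 ± 1.06 (99.8 CPM against 11.5 CPM) and Gabrg3, a GABA-A receptor subunit, at 1.97 ± 0.65. Peptide receptor genes were among the first 10: Oxtr, the oxytocin receptor, at 2.53 ± 0.97, Crhr2, a receptor for urocortins, at 2.43 ± 0.86, and Ramp3, an accessory protein of calcitonin-family receptors, at 2.55 ± 1.03. Galnt18 (2.05), the nuclear receptor genes Rorb (2.03) and Nr2f2 (2.01) and Slc17a8 (1.94 ± 0.48) made up the rest.

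These ratios were smaller in DR_all, where none of the 10 was called. The 10 genes were picked for the largest called ratios in pDR, so smaller ratios elsewhere are in part built into that choice. Adcyap1 was higher in positive cells in 11 of 11 plates, at 0.95 ± 0.64 (55.7 CPM against 25.1 CPM, 72.8% against 40.1% of cells), just below the threshold, and Ramp3 was higher in 10 of 11 plates at 0.89 ± 0.65. Cacng5 was at 0.82 ± 0.82, and the other 7 lay between 0.07 and 0.55.

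Among the 71 genes called lower in pDR, the 10 lowest ratios belonged to Spp1 (−2.99 ± 0.77), Renbp (−2.98 ± 2.26), Fam19a2 (−2.56 ± 1.02), Hs3st4 (−2.48), Trh (−2.43 ± 1.88), Arhgap36 (−2.30), Tmtc1 (−2.21), Scn7a (−2.20), Slc22a3 (−2.17) and Dlk1 (−2.15). Spp1 encodes osteopontin, Scn7a a sodium channel, Slc22a3 an organic cation transporter that carries monoamines, and Dlk1 a membrane protein related to Notch ligands. The ratio of Trh spread from −4.62 to −0.26 over the plates. In DR_all, Fam19a2 (−2.07 ± 1.54) and Dlk1 (−1.68 ± 1.98) were lower in 10 of 11 plates and Trh (−2.46 ± 1.88) in 9 of 11, with 2 plates at 0, so that none was called, and Spp1 was at 0.39 ± 2.98. Gad2 had a ratio in the same range in pDR (−2.34 ± 2.62) but was lower in 3 of 4 plates, and Gad1 in DR_all (−2.35 ± 3.28) was lower in 10 of 11, so neither was called.

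The 4 genes called lower in DR_all were Asb4 (−3.84 ± 1.41), Calcr, the calcitonin receptor (−3.04 ± 1.92), St8sia2, an enzyme that adds polysialic acid (−1.34 ± 0.66), and the imprinted gene Peg10 (−1.21 ± 0.58). Asb4 averaged 3.38 CPM in cells with Nos1 and 51.6 CPM in cells without. St8sia2 was 1 of the 71 genes called lower in pDR (−1.46 ± 0.89) and 1 of the 4 in DR_all, and was the 1 gene that both lists held. Asb4 (−0.73), Calcr (−1.89) and Peg10 (−0.39) were not called in pDR.

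None of the other members was called between cells with and without Nos1. In pDR the log2 ratios were 0.56 ± 0.88 for Pde9a, 0.25 ± 0.99 for Prkg2, 0.09 ± 0.48 for Pde2a, −0.33 ± 1.38 for Prkg1 and −0.71 ± 1.16 for Pde5a. In DR_all they were −0.15 ± 0.29 for Pde2a, −0.38 ± 0.71 for Prkg2, −0.56 ± 0.85 for Pde5a, −0.63 ± 1.27 for Pde9a and −0.74 ± 1.04 for Prkg1. The SD over plates was larger than the ratio for all 5 genes in both dissections, and the pDR ratio of Pde9a was −0.34 when at least 5 reads of Nos1 were asked for. Without plate SER39 the pDR ratio of Prkg1 was 0.35, and without SER40 that of Pde2a was −0.08. Pde2a and Pde9a passed the level for comparison and the other 3 did not, so their ratios rest on few reads and on the constant of 1 CPM. The serotonin neuron genes differed little, at most 0.24 in either direction on the log2 scale.

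**Figure D4:**
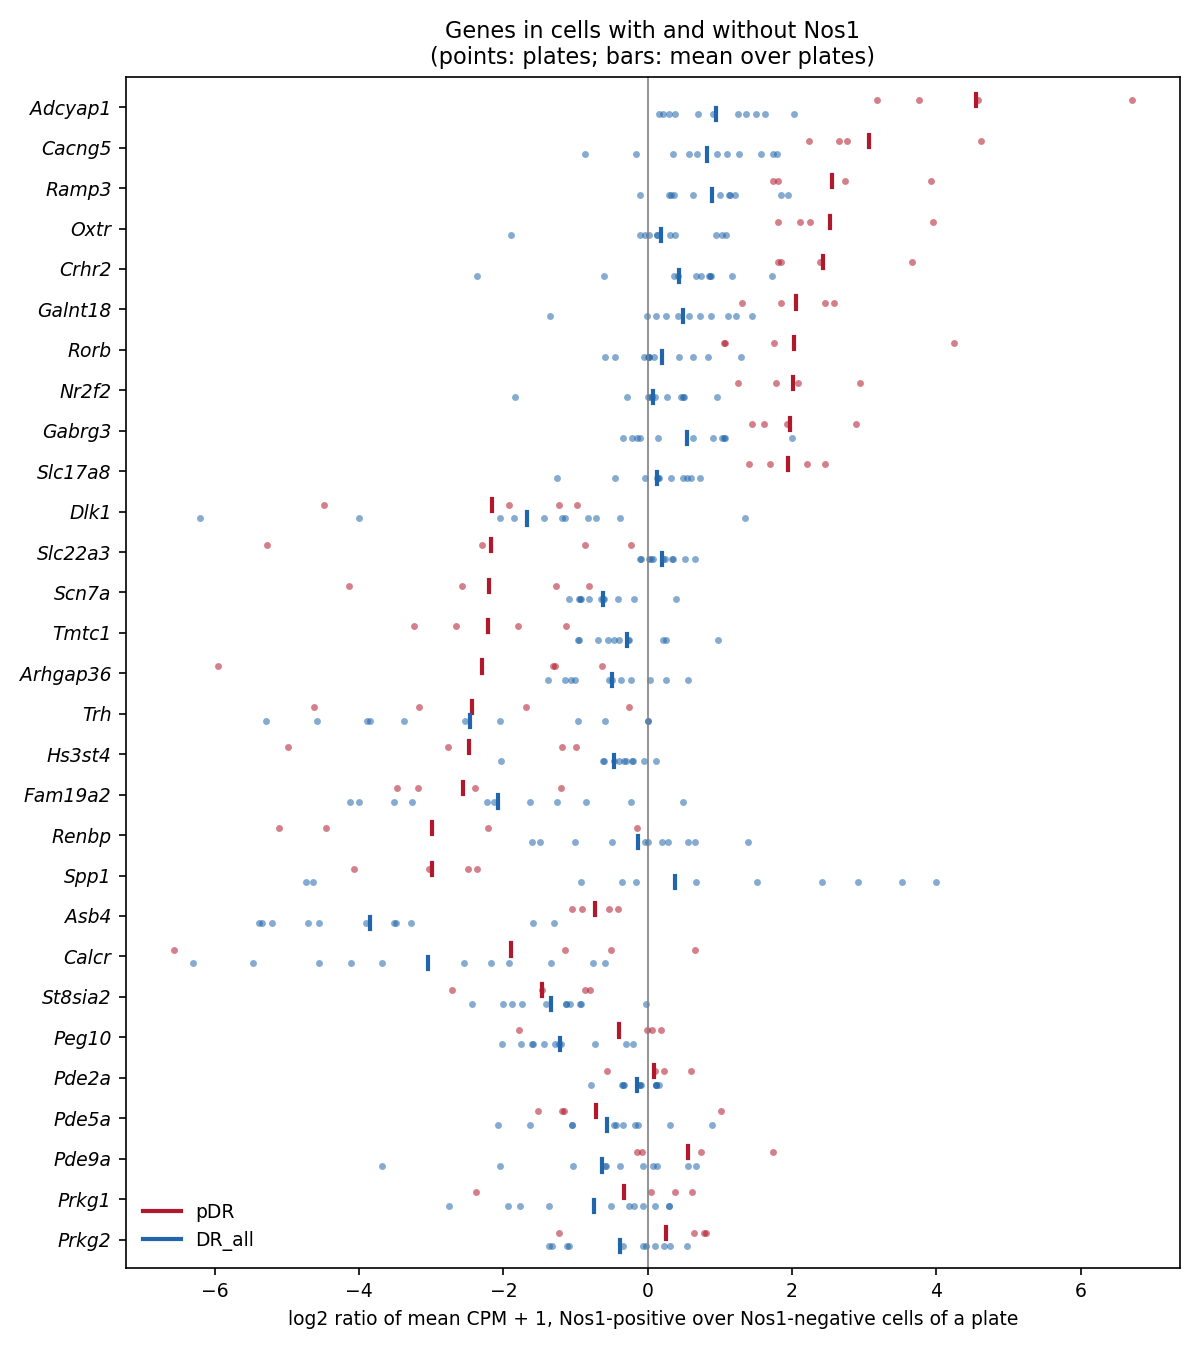
Points compare cells with and without Nos1 on 1 plate each, as a log2 ratio of mean levels with 1 CPM added, for the genes named above and the other members, and short bars are means over plates (4 of pDR in red, 11 of DR_all in blue). The 10 genes at the top, picked by their pDR ratios, lie at 1.94 to 4.55 in pDR and at 0.07 to 0.95 in DR_all. The members at the bottom lie around 0 with plates on both sides.

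Markers of other cells had low medians in both sets, with single cells far above them. The summed level of 6 astrocyte, 6 microglia, 6 endothelial and 6 mural genes had a median of 0 CPM in cells with and without Nos1, and the same held for 6 genes of other midbrain and pontine neurons such as Th and Slc17a6. The 6 oligodendrocyte genes, with Mbp among them, summed to a median of 96.8 CPM in Nos1-positive and 103.9 CPM in Nos1-negative pDR cells, and of 94.1 CPM and 112 CPM in DR_all. Their means in DR_all were 239 CPM and 295 CPM, the highest cells had 14758 CPM (with Nos1) and 78990 CPM (without), and 80 of 173 and 304 of 536 cells were over 100 CPM. All 6 were read in each set except Mag in the 38 positive pDR cells. The part of these markers in the differences above was not tested.

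The wider pathway was taken from a list of 60 further genes in the table, of which 25 had a mean over 10 CPM. Between cells with and without Nos1, 0 of the 25 were called higher, and 1 was called lower in pDR and 0 in DR_all. Over all genes 0.532% were called higher and 0.878% lower in pDR, and 0.0124% and 0.0495% in DR_all. Their median log2 ratio was −0.03 in each dissection, beside −0.02 (pDR) and −0.01 (DR_all) over all genes compared. The gene called lower was Pde1a, a phosphodiesterase stimulated by calcium and calmodulin, at −1.02 ± 0.45 in pDR (94.2 CPM against 167 CPM) and −0.56 ± 0.91 in DR_all. Gucy1a1, the alpha subunit of the soluble guanylyl cyclase, was lower in Nos1-positive cells on all 4 plates of pDR (−0.51 ± 0.14) and all 11 of DR_all (−0.80 ± 0.51) without reaching the threshold, at 37.4 CPM against 70.6 CPM in DR_all.

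Both subunits of the cyclase were present in most cells. Reads of Gucy1a1 and Gucy1b1 were found together in 38 of 38 Nos1-positive pDR cells and 246 of 252 negative cells, and in 130 of 173 (75.1%) and 430 of 536 (80.2%) DR_all cells. Among Pde5a-positive cells the counts were 54 of 54 in pDR and 31 of 36 in DR_all. Gucy1a2, the other alpha subunit, was read in 46.5% of all cells at 3.89 CPM in pDR and 2.87 CPM in DR_all.

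Between dissections, 2 of the 25 pathway genes had a log2 ratio of at least 1 and 0 of at most −1, beside 2.82% and 1.21% of all genes compared, of which 11.6% had plate means without overlap. Gucy1a1 was at 224 CPM in pDR and 58.1 CPM in DR_all, a log2 ratio of 1.93, with plate means of 168 to 248 CPM and 20.4 to 77.5 CPM that did not overlap. Pde1a was at 149 CPM and 45.8 CPM, a ratio of 1.68, also without overlap (111 to 177 CPM and 17.8 to 78.4 CPM). Pde1b lay just under the threshold, at a ratio of 1.00 once rounded, with 60.2 CPM against 29.7 CPM and plate means that did not overlap. The other pathway genes without overlap were lower in pDR, namely Spr (−0.82), Pde6d (−0.58) and Asl (−0.51). The dissections also differ in plates and in the mix of cells, which cannot be told apart from region.

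Transcripts of enzymes for the substrate and the cofactor were read in almost every cell. Ass1 and Asl, the enzymes that remake arginine, were read in 99.2% and 95.8% of the cells, and Gch1, the first enzyme of tetrahydrobiopterin synthesis, a cofactor that Tph2 also needs, in 99.6% at 1086 CPM in pDR and 988 CPM in DR_all. Nos1ap, an adaptor of the synthase, was read in 72.2% of cells and Dlg4, which encodes the scaffold PSD-95, in 97.0%. Nos2, the inducible synthase, had no read in any of the 999 cells, which allows a share of up to 0.300%. Nos3, the endothelial synthase, had reads in 42.1% of the cells at 2.89 CPM in pDR and 3.93 CPM in DR_all, and 32.3% of its exon bases overlap another listed gene, which counting without strand cannot separate. Of the natriuretic peptide receptors that are cyclases, Npr2 was read in 78.1% and Npr1 in 1.80% of cells. The channels gated by cyclic nucleotides were read in 0 to 2.40% of cells, except Cngb1 at 20.9%.

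The 6 members were combined in many ways within cells. Nos1 and Pde5a were read together in 2 of the 290 pDR cells and 7 of the 709 DR_all cells, an odds ratio over plates of 0.47. Pde2a and Pde9a were together in 574 of the 999 cells, with an odds ratio of 5.07 and a correlation of ln(CPM+1) within plates of 0.24. All other pairs of members, with Nos1 and Pde5a (−0.05) among them, had correlations between −0.13 and 0.06, which in such sparse counts is no finding. Their odds ratios ran from 0.42 (Pde5a with Prkg2) to 1.62 (Prkg1 with Prkg2), and Pde5a with Pde9a was at 0.49, so the value for Nos1 with Pde5a does not stand apart. A kinase was read in 16 of 38 Nos1-positive pDR cells (42.1%, against 27.8% of the others) and in 39 of 173 Nos1-positive DR_all cells (22.5%, against 27.4%). No cell had all 6 genes, and 14 cells of each dissection had none.

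Cells were grouped into 12 clusters without the members, the markers and the pathway genes, and each cluster is called by its 3 leading genes. The pDR cells of plates SER12 and SER13 formed 2 clusters of their own and those of SER39 and SER40 another, so clusters of pDR cells are also groups of plates. Another 65 cells, 54 of pDR and 11 of DR_all, were led by Rgs5, Apoe and Mbp. They came from 14 plates, of which only 2 gave at least 5 cells. Each of the remaining clusters held at most 2 pDR cells, so most cells of SER25 were among these 65. The 65 cells had a mean of 1310 CPM over the 6 oligodendrocyte genes, with a median of 70.1 CPM. The 8 clusters made up mostly of DR_all cells came from 9 to 11 plates each.

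The highest share of Nos1, 24 of 40 cells (60.0%, 43.3% to 75.1%), was in the cells led by Grik1, Spp1 and Nmbr, which came from 9 DR_all plates and had a mean of 34.6 CPM. In the 4 plates with at least 5 such cells the share lay between 57.1% and 80.0%. In these cells Pde2a was read in 10 of 40 (25.0%) and Pde9a in 6 of 40 (15.0%), the lowest shares of any cluster. Their median depth, 681452 reads, was also the lowest of any cluster, and its part in these shares was not tested. Prkg1 was read in 17 of 40 (42.5%), close to the 42.6% of the cells led by Npas1, Nell1 and Pth2r. Of the 40 cells, 62.5% had Gad2 and 2.50% Trh. Next in Nos1 came the cells led by Sostdc1, Pth2r and Wnt4 (48 of 146, 32.9%, mean 23.3 CPM) and those led by Sst, Pdyn and Npy2r (45 of 160, 28.1%, mean 20.9 CPM), whose intervals overlap. Crh was read in 0 of the 146 and in 28 of the 160 cells (17.5%), so the relation of Nos1 to Crh was not shared by all clusters rich in Nos1. The lowest share of Nos1 was 1 of 40 (2.50%) in the cells led by Sox14, Adamtsl2 and Asb4.

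That last cluster had the highest share of Pde5a. It was read in 20 of 40 cells (50.0%, 33.8% to 66.2%; mean 12.0 CPM), of which 75.0% had Trh, and in 37 of 107 cells (34.6%, 25.6% to 44.4%) led by Prph, Cwc22 and Avil, of which 63.6% had Trh. In 3 clusters of 222 cells in all, led by Piezo2, Pter and C1ql3, by Rorb, Wnt4 and Gal and by Tecrl, S1pr3 and P2ry1, no cell had Pde5a. By the exact interval this allows shares of up to 3.30%, 4.06% and 14.8%, beside 5.08% of all DR_all cells.

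Prkg1 likewise had no read in some clusters. It was read in 0 of the 110 cells led by Piezo2, Pter and C1ql3, from 11 plates, which allows a share of up to 2.73% of cells with a read by the limit of 3 counts and 3.30% by the exact interval. It was also read in 0 of the 23 led by Tecrl, S1pr3 and P2ry1, where so few cells allow up to 14.8% by the exact interval. In the cells led by Npas1, Nell1 and Pth2r it was read in 40 of 94 (42.6%, 32.4% to 53.2%). The same 110 cells all had Pde2a and had the highest share of Pde9a, 97 of 110 (88.2%), at 16.8 CPM and 20.8 CPM. Their median depth of 902382 reads was above that of the Npas1-led cells, 770596. Prkg2 ranged only from 2.74% in the Sostdc1-led cells to 17.5% in the Sst-led cells.

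**Figure D5:**
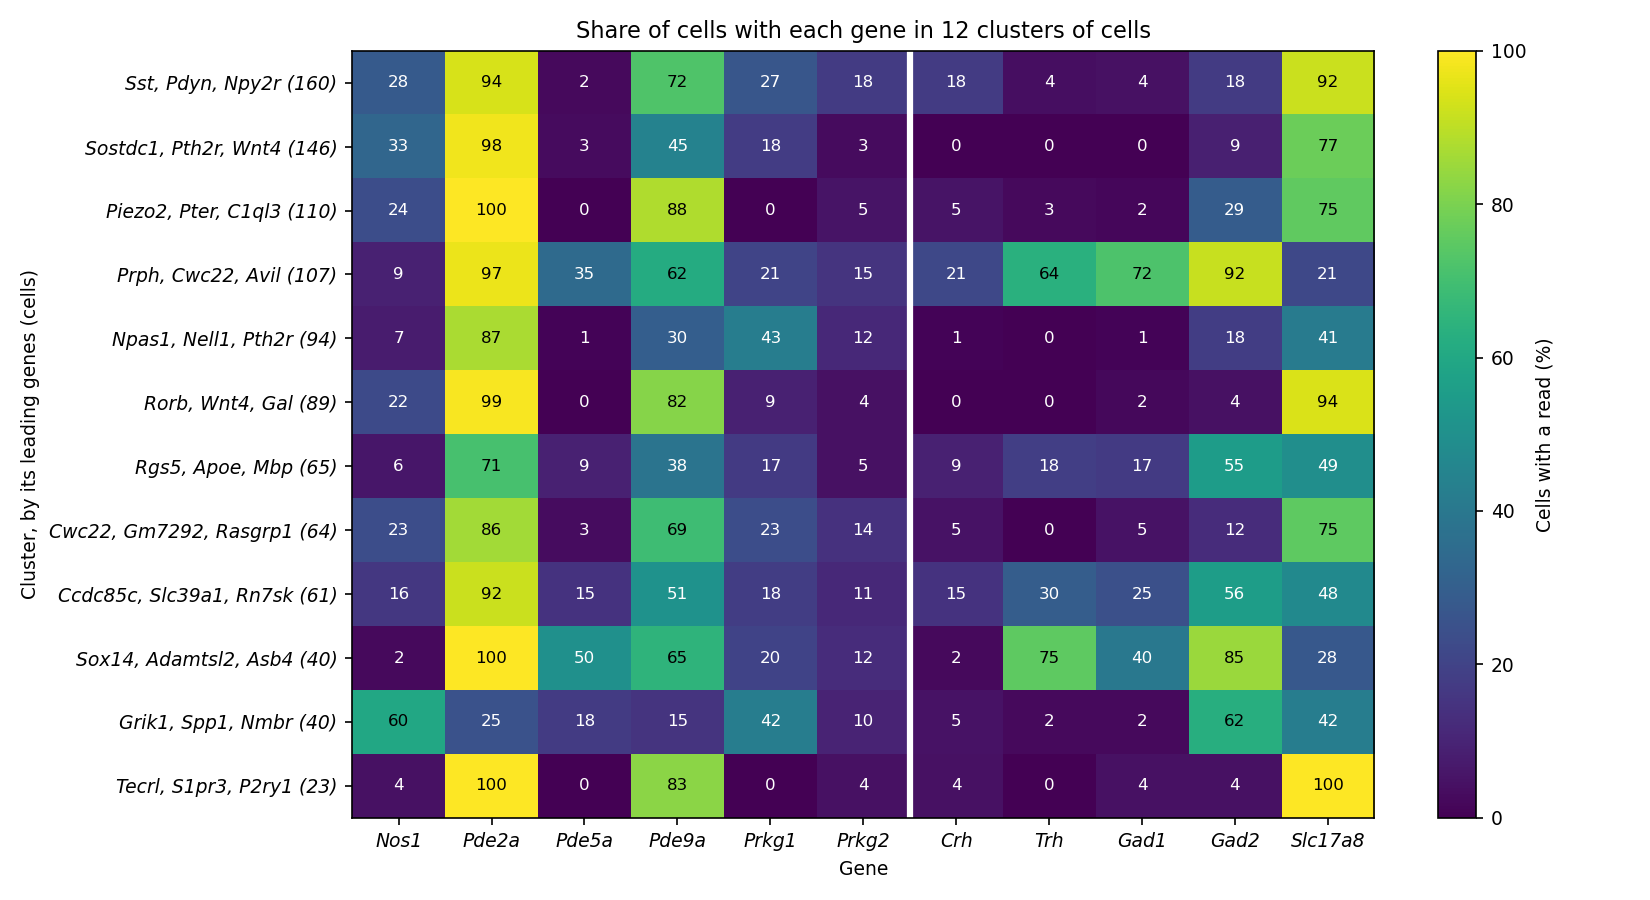
Colour and number give the percentage of cells with at least 1 read of each member and of the 5 marker genes (right of the white line) in 12 clusters, named by their leading genes with the number of cells. Nos1 peaks at 60.0% in the cells led by Grik1, where Pde2a is at 25.0%, and Prkg1 is at 0 in the cells led by Piezo2 and by Tecrl.

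When the clusters were built on 2000 variable genes instead, the cells richest in Nos1 were another group. It held 27 cells with Wif1 and C1ql2 among their leading genes, 7 of pDR and 20 of DR_all, from 12 plates, of which 20 had been among the Sst-led cells. Nos1 was read in all 27, at a median of 131 CPM (5.85 to 283), compared with 18.9% of the other cells. The cells were picked for their Nos1 level, so this is a description. Crh was read in 21 of them (77.8%, against 6.07% of the other cells) and Slc17a8 in all 27 at a median of 399.7 CPM, while Trh and Gad1 were not read in any. Pde2a was read in 27, Pde9a in 16, Prkg1 in 2, Pde5a in 1 and Prkg2 in 0 of them. They make up 12.8% of all Nos1-positive cells and 26.25% of all Crh-positive cells.

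The genes most like each member were found by the correlation of ln(CPM+1) over the 999 cells after subtracting plate means, which is a description since cells share plates and depth. Nos1 was most like Adcyap1 (r = 0.34, and 0.36 without subtracting plate means), Cacng5 (0.20), Ramp3 (0.20), Gabrg3 (0.19) and Zwint (0.19). Pde5a was most like Fam19a2 (0.41), Trh (0.40), Asb4 (0.39), St8sia2 (0.34) and Pcsk6 (0.33). Fam19a2 and Trh are among the genes called lower in Nos1-positive pDR cells, and Asb4 and St8sia2 among the 4 called lower in DR_all.

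Pde2a was most like Tph2 (0.43), Slc7a8 (0.43), Map1b (0.43), the synthase regulator Ddah1 (0.42) and Tppp3 (0.40), and 601 genes were over 0.2 with it, compared with 2 for Nos1. Pde9a was most like Lpar1 (0.32), Cited1 (0.30), Slit2 (0.30), Ramp3 (0.29) and Lsamp (0.29). For Prkg1 the list was Pcdh7 (0.23), Pcdh11x (0.22), AI593442 (0.22), Pcdh10 (0.21) and Grm8 (0.20), of which 3 are protocadherins. Prkg2 had no gene over 0.2, with Tmeff2 (0.18), Tent5a (0.17), Kcnab1 (0.16), Ret (0.16) and Cbln4 (0.15) as the nearest.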

How the data were processed

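Single-cell RNA was measured by Smart-seq2 in 999 of 1536 labelled cells; the other 537 are not analysed here. The authors ran bcl2fastq 2.19.0.316, STAR 2.6.1a (mm10) and HTSeq 0.11.2 without strand, removed Y-linked genes and deposited CPM for 53263 genes. Whole reads were recovered from the deposited CPM by its smallest step (100% of values within 0.001 of a whole count), and intervals are exact and cover counting error only. A gene was detected with at least 1 read; ratios are log2 of mean CPM plus 1, over genes with a mean above 10 CPM. Plates needed 5 cells of each kind for the Nos1 comparison and 3 for the markers, with Mantel-Haenszel odds ratios over plates. Clusters used 20 components, 20 neighbours and resolution 1 in Seurat 5.3.0 (R 4.3.3), without the members, markers and pathway genes; no doublet caller was run, since cells were sorted singly. Other steps used Python 3.11.15, NumPy 2.4.6, pandas 2.3.3, SciPy 1.17.1 and matplotlib 3.10.9. On simulated counts with 200 planted changes of 2 on the log2 scale, the Nos1 comparison recovered 200 in pDR and 199 in DR_all. It also called 4 and 0 genes without a planted change. The simulation had no plate effects or cell groups, so its result does not cover sparse genes bound to a group of cells. Named genes were the members, markers, pathway and identity lists, the 10 largest called ratios each way, the 5 genes most like each member and the 3 leading genes of clusters. Members and lists were chosen with earlier results of these data known.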

Additional observations from a re-analysis of the deposited data

Results flagged for a closer look

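Of 46 sets of pDR plate values, 4 held a plate far from the others by Dixon's criterion, which chance alone does in about 1 set in 20. Plates of DR_all were not screened in this way. The log2 ratio of Pde5a between cells with and without Nos1 was 1.01 on plate SER13, and that of Prkg2 was −1.24 on plate SER40. On plate SER39 the share of cells with Nos1 was 30.5 percentage points higher with than without Slc17a8. On plate SER40 the share with Pde2a was 25.0 percentage points higher with than without Trh.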

How the results depend on the processing

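Of 198 values under other settings, 131 stayed and 67 moved. Log2 ratios were judged by the SD over plates and shares by their exact interval for counting error. Odds ratios and gene counts were judged by a fixed fold change. No called value changed sign, but uncalled pDR ratios between cells with and without Nos1 did: Pde2a was −0.20 (5 reads of Nos1) and −0.17 (thinned), Pde9a −0.34 (5 reads), Prkg2 −0.08 (0.1 CPM added) and Prkg1 0.09 (cells pooled). Settings for Pde5a and for Pde9a with Slc17a8, and the cells without a Gad read, were chosen after seeing the data. The cause of these shifts was not tested. With at least 5 reads asked for, the pDR and DR_all shares were 72.8% and 72.8% for Pde2a, 13.8% and 3.53% for Pde5a, 41.4% and 46.4% for Pde9a, 8.62% and 11.0% for Prkg1, 6.90% and 6.63% for Prkg2, and 8.97% for Nos1 in pDR. With at least 10 CPM they were 7.59% and 20.3% (Nos1), 48.6% and 52.5% (Pde2a), 10.0% and 2.26% (Pde5a), 32.1% and 39.1% (Pde9a), 5.86% and 8.60% (Prkg1), and 4.14% and 4.37% (Prkg2). Thinned, they were 79.6% and 83.2% (Pde2a), 49.8% and 53.2% (Pde9a), and 13.8% and 15.8% (Prkg1). Cells of at least 500000 reads gave 94.0% for Pde2a in DR_all.

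At 5 reads the odds ratios of Nos1 were 7.98 and 10.6 with Crh and 0.171 and 0 with Trh, and those of Pde5a in pDR 0.341 with Crh and 4.27 with Trh. At 10 CPM Nos1 had 13.6 with Crh in pDR and 0.152 and 0 with Trh, Pde5a in pDR 0.248 with Crh, 2.20 with Trh, 4.17 with Gad and 0.220 with Slc17a8, Pde5a in DR_all 16.9 with Gad, and Pde9a in pDR 1.64 with Slc17a8. Thinned, Nos1 in DR_all had 10.3 with Crh and 0.0896 with Trh. Genes called with Nos1 at 5 reads were 72 higher and 162 lower in pDR and 2 higher in DR_all; at 10 CPM 2 higher and 11 lower in DR_all; thinned, 118 lower in pDR and 2 higher in DR_all; over all detected genes 120 higher and 305 lower in pDR and 7 lower in DR_all; with 10 CPM added 24 and 23 in pDR and 2 lower in DR_all.

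The Pde5a ratio of pDR over DR_all was 1.53 with 0.1 CPM added and 0.21 with 10 CPM. Between cells with and without Nos1, 0.1 CPM gave −2.13 (pDR) and −1.67 (DR_all) for Pde5a and −1.17 for Prkg2 in DR_all, and 5 reads of Nos1 gave −0.34 for Pde9a in pDR. The cluster highest in Nos1 held it in 100% of cells with 2000 variable genes.

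Leaving out each plate, 433 of 448 values stayed by the same rules. The ranges of the others were, for odds ratios, 3.46 to 6.05 (Nos1 with Slc17a8, pDR), 0.383 to 0.857 (Pde5a with Crh, pDR), 5.70 to 12.3 (Pde5a with Gad, pDR), 0.685 to 2.82 (Pde5a with Crh, DR_all, under 1 without SER52), 0.185 to 0.410 (Nos1 with Trh, DR_all), 34.0 to 64.5 (Pde5a with Trh, DR_all) and 4.30 to 9.60 (Nos1 with Crh, DR_all). Called genes ranged over 40 to 79 higher and 66 to 134 lower in pDR, and 1 to 3 higher and 4 to 7 lower in DR_all. The log2 ratio of Prkg2 between dissections was 0.03 without SER25. Sparse genes are limited by depth, and some positive cells rest on a single read. In pDR and DR_all these were 12 of 58 and 22 of 143 cells for Prkg1. For Prkg2 they were 7 of 36 and 3 of 62 cells, and for Pde5a 7 of 54 and 8 of 36.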
